A study of Homo sapiens with 2 samples.

Results

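The nucleolar factor set comprised 44 genes whose products make ribosomes in the nucleolus, and 37 of them had a probe set listing that gene alone. They were taken by gene symbol from an array table in which 19775 genes were measured, and each gene was read from the probe set that was brightest on average over the arrays. The cells were of QGP1, an established human cell line of pancreatic neuroendocrine tumour origin. A first sample held QGP1 cells with high aldehyde dehydrogenase (ALDH) activity, obtained by fluorescence-activated sorting, and a second held control QGP1 cells. Both were untreated as far as the labels say, and the sources used here do not say whether the control cells were sorted. The comparison asks how cells with high ALDH activity differ in expression from control cells, this activity being used to enrich for tumour cells with stem-like behaviour. There was 1 array per group, so no difference below has a replicate check or a p-value. A pooled RNA level also cannot tell a larger share of cells with a transcript from more transcript per cell.

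Ribosome production starts when RNA polymerase I transcribes the ribosomal DNA into a long precursor. Small nucleolar RNPs (snoRNPs) of the box C/D and box H/ACA classes then guide ribose methylation and pseudouridylation of this RNA, and large assembly complexes fold, cleave and load it with ribosomal proteins to form the small and large subunits. The pathway is among the most costly of a growing cell, and its protein factors are known targets of the transcription factor MYC. Nucleolar size has long been read by pathologists as a sign of tumour cell growth.

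Levels are log2 values from robust multi-array averaging (RMA), and differences are ALDH high minus control on that scale. The median over all probe sets was 5.68 on the ALDH-high array and 5.69 on the control array. All 10 neuroendocrine and all 6 epithelial marker genes checked were at or above the median probe set level of 5.68, whereas 2 of 8 fibroblast and stellate, 1 of 6 endothelial, 1 of 4 leukocyte and 0 of 3 acinar markers were. The controls added at hybridisation differed by 0.05 on average (SD 0.04, 18 probe sets). The poly-A controls, which are added before labelling, were higher on the ALDH-high array by 0.32 (SD 0.07, 24 probe sets). This has the direction of most member differences below and is larger than their median of 0.24, whereas the median over all genes was -0.01. The part of this offset in the results was not tested.

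The nucleolar factor genes were slightly and broadly higher in the ALDH-high cells. Of the 37 measured genes, 34 (91.9%) lay above 0, against 45.6% of all genes and 48.3% of the 12529 genes at or above the median level. Their median difference was 0.24, against -0.01 over all genes. The differences ran from -0.25 to 0.69 with a spread over the genes of 0.21 (SD). No member was over 2-fold apart in either direction, a size reached upwards by 0.465% and downwards by 1.23% of all genes (0.607% and 1.66% of those at or above the median level). At 1.5-fold, LYAR and UTP20 were higher and no member was lower, against 2.61% of all genes higher and 4.21% lower (3.53% and 5.52% at or above the median level). Without these genes the median of the other 35 was 0.21.

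**Figure D1:**
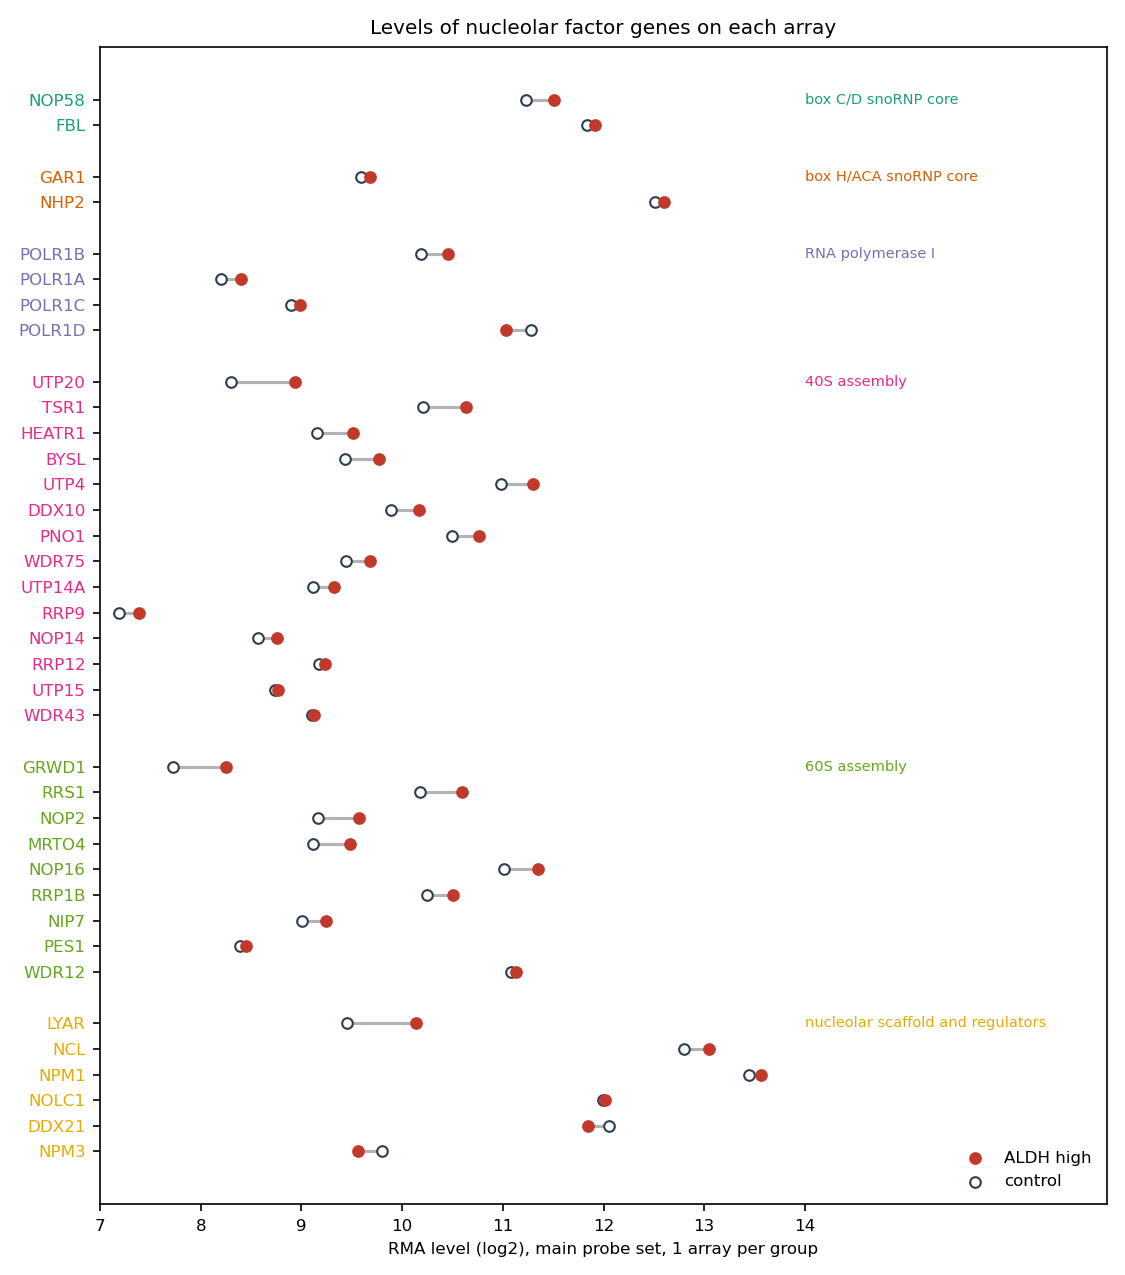
RMA level (log2) of each of the 37 measured nucleolar factor genes on the ALDH-high array (filled) and the control array (open), grouped by role, with 1 array per group. The filled point lies to the right in 34 genes and to the left in POLR1D, DDX21 and NPM3.

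A measure of scatter between probe sets was taken from genes with several of them. At or above the median level, the differences of probe sets of 1 gene had a pooled SD of 0.18. A total of 23 members were higher by more than this spread, against 20.8% of all genes and 23.6% of those at or above the median level. The number lower by more than the spread was 3, against 24.2% of all genes and 25.6% of those at or above the median level. This spread does not cover variation between cultures or sorts. It also does not cover an offset that the probe sets of an array share, such as one from labelling.

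The members were bright genes. Their mean levels ran from 7.29 for RRP9 to 13.50 for NPM1, and all 37 were above the median probe set. Across the 37 genes the level and the difference had Pearson's r = -0.25 and Spearman's rho = -0.11, and the genes share the same arrays. After centring on genes of like level, 33 of 37 members lay above 0, against 48.6% of all genes.

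The growth regulator LYAR, a nucleolar zinc finger protein that promotes processing of the ribosomal RNA precursor, had the largest difference. Its level was 10.14 in ALDH high and 9.45 in control, a 1.61-fold higher level at the 98.3rd percentile of differences over all genes. Its second probe set stood at 8.60 in ALDH high and 8.11 in control, a difference of 0.49 that is under 1.5-fold. Both probe sets of LYAR can bind more than 1 transcript, so cross-hybridisation can add to either. UTP20, a large scaffold protein of small subunit assembly, had 8.93 in ALDH high and 8.30 in control, or 1.54-fold higher, on its single probe set. With a pseudocount its difference was 0.58, just under 1.5-fold. At the other end, POLR1D and NPM3 had the largest negative differences.

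The promoters of these 4 genes are shown as the 250 bases before the transcription start, since they bracket the range of the set, together with that of NPM1, the paralog of NPM3. They are RefSeq sequences of GRCh38.p14, written along the gene's own strand. Capitals mark the E-box CACGTG, to which MYC and its partner MAX bind, and the box CCAAT, to which NFY binds. A search for the NRF1 motif and the YY1 motif, on both strands like the others, gave no match in these 5 windows. A match is only a run of letters and does not show binding.
LYAR (chr4:4290155-4290404, - strand): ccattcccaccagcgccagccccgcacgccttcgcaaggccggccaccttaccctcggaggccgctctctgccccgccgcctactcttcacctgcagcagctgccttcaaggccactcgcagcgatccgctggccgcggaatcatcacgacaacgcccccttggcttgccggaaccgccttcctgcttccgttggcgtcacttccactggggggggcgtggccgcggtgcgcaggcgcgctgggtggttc
UTP20 (chr12:101279855-101280104, + strand): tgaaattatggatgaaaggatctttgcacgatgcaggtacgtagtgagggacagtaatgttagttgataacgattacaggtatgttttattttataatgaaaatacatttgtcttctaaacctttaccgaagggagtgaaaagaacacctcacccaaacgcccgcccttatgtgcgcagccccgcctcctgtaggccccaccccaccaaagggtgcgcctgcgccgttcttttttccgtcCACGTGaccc
NPM3 (chr10:101783447-101783696, - strand): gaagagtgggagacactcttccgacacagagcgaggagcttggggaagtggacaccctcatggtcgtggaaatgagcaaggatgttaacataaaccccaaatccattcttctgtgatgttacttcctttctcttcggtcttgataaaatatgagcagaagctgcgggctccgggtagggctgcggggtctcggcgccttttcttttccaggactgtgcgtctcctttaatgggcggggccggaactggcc
POLR1D (chr13:27620493-27620742, + strand): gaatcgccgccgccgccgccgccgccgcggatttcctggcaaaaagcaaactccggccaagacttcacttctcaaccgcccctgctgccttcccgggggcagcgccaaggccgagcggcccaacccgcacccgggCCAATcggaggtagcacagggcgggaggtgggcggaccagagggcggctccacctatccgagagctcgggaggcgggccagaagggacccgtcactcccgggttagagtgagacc
NPM1 (chr5:171387599-171387848, + strand): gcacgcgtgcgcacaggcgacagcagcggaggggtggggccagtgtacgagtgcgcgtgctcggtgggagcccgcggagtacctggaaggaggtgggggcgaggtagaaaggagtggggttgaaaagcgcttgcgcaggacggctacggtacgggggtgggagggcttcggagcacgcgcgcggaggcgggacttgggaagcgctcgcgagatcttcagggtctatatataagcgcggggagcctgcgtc
UTP20 carried an E-box, whose first base lay 10 bases before the start, and POLR1D carried a CCAAT box, whose first base lay 115 bases before it. The windows of LYAR, NPM3 and NPM1 held none of the 4 motifs.

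The enzyme that begins the pathway differed unevenly between its subunits. POLR1B, the second-largest subunit of RNA polymerase I, had a level of 10.45 in ALDH high and 10.19 in control. Its next brightest probe set turned the direction, at -0.03, and the other 2 were at 0.13 and 0.16. POLR1A, the largest subunit, stood at 8.40 in ALDH high and 8.20 in control. Its 3 probe sets all lay above 0. POLR1C, a subunit shared with RNA polymerase III, measured 8.99 in ALDH high and 8.90 in control. POLR1D, the other shared subunit and partner of POLR1C, went the other way, with 11.03 in ALDH high and 11.28 in control. That is a 1.19-fold lower level, and a further POLR1D probe set differed by -0.29, while the remaining one differed by 0.07. The shared pair thus had opposite signs, with POLR1C within the probe set spread and POLR1D beyond it.

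Among the snoRNP core proteins NOP58 had the largest difference. NOP58, a scaffold of the box C/D particle, had 11.51 in ALDH high and 11.23 in control, or 1.21-fold higher. FBL (fibrillarin), the methyltransferase of the same particle, had 11.92 in ALDH high and 11.83 in control. The box H/ACA proteins differed as little as FBL did. GAR1 stood at 9.68 in ALDH high and 9.59 in control, and NHP2 at 12.60 in ALDH high and 12.52 in control. The differences of FBL, GAR1 and NHP2, between 0.08 and 0.09, were within the probe set spread. NOP56 and DKC1, the remaining core proteins of these particles in the set, were not analysed here, because each shares its probe sets with another listed gene.

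All 14 factors of the small subunit processome and of 40S assembly lay above 0, with a median of 0.26. The first group to join the precursor, the complex that ties processing to transcription by RNA polymerase I, has 5 members here. HEATR1 had 9.51 in ALDH high and 9.15 in control, and UTP4 had 11.30 in ALDH high and 10.98 in control. WDR75 stood at 9.68 in ALDH high and 9.44 in control. UTP15 (8.77 in ALDH high, 8.73 in control) and WDR43 (9.12 in ALDH high, 9.11 in control) were nearly level between the arrays. Members of a single complex thus ranged from 0.01 to 0.36 on the log2 difference scale. A second bright HEATR1 probe set, at 0.33, was close to the first, and another was at -0.05.

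Factors that act inside the processome had differences of a similar size. DDX10, an RNA helicase, measured 10.17 in ALDH high and 9.89 in control, and UTP14A 9.33 in ALDH high and 9.12 in control. RRP9, a protein of the snoRNP that pairs with the 5′ end of the precursor, was the dimmest member, with 7.39 in ALDH high and 7.19 in control. NOP14 stood at 8.76 in ALDH high and 8.57 in control. These 4 genes lay between 0.19 and 0.28 on the difference scale, just above the probe set spread.

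The later factors of small subunit maturation and export included larger values. TSR1, which resembles a translational GTPase and sits on the late precursor of the 40S subunit, had 10.63 in ALDH high and 10.21 in control, a 1.34-fold higher level. All 4 TSR1 probe sets were above 0, the lowest at 0.03. BYSL (bystin) had 9.77 in ALDH high and 9.44 in control. PNO1, an RNA-binding partner of the final cleavage, had 10.77 in ALDH high and 10.49 in control. Its probe set of next highest level was at -0.11, and both of these can bind more than 1 transcript. The remaining PNO1 probe set, specific to 1 transcript, was at 0.26. RRP12, an export factor, stood at 9.23 in ALDH high and 9.18 in control, and 1 of its 5 probe sets lay above 0. The others ran from -0.24 to 0 and were much dimmer, at mean levels from 5.68 to 6.28.

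The 9 measured factors of 60S assembly all lay above 0 as well, with the highest median of the roles, 0.33. GRWD1, a chaperone for a ribosomal protein of the large subunit, had 8.25 in ALDH high and 7.73 in control, 1.44-fold higher. RRS1, which helps to load the small ribosomal RNA of the large subunit, had 10.59 in ALDH high and 10.18 in control. NOP2, a methyltransferase of ribosomal RNA and an old proliferation antigen, had 9.58 in ALDH high and 9.17 in control. These 3 genes have a single probe set each, so no second reading exists for them.

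MRTO4, NOP16 and NIP7 had close values on a further probe set, and RRP1B had a smaller difference on a much dimmer one. The level of MRTO4, a placeholder for the stalk proteins, was 9.48 in ALDH high and 9.11 in control, a difference of 0.37, and its other probe set gave 0.39. NOP16 had 11.35 in ALDH high and 11.01 in control, or 0.33, and its other bright probe set gave 0.40. NIP7 had 9.24 in ALDH high and 9.002 in control, or 0.24, with 0.25 on the other. RRP1B, which is both a processing factor and a chromatin-bound regulator, had 10.50 in ALDH high and 10.25 in control, or 0.25. Its other probe set gave 0.07 at a mean level of 5.97, against 10.38 for the main one. The probe set spread is an SD of single probe sets, so it cannot say whether this gap is unusual.

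PES1 and WDR12, which form a complex with BOP1 needed for large subunit RNA processing, were nearly level. PES1 stood at 8.45 in ALDH high and 8.39 in control, and WDR12 at 11.13 in ALDH high and 11.08 in control. The second PES1 probe set was dim (3.74 in ALDH high, 4.12 in control), so its difference of -0.38 rests on low signal. BOP1, EBNA1BP2, GNL3, PPAN and DDX18 were not analysed here. BOP1 and PPAN had only probe sets that list another gene too.

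The abundant nucleolar proteins and regulators were the most mixed role, with 4 of 6 genes above 0 and a median of 0.06. NCL (nucleolin), which binds ribosomal RNA and its genes, had 13.05 in ALDH high and 12.80 in control, 1.19-fold higher. NPM1 (nucleophosmin), the chaperone that gives the nucleolus its outer layer, had 13.56 in ALDH high and 13.45 in control, and its 3 probe sets lay between 0.05 and 0.16. NPM3, its smaller paralog, had the opposite sign, with 9.56 in ALDH high and 9.80 in control. NOLC1, a chaperone of snoRNPs, was level, with 12.01 in ALDH high and 11.99 in control. DDX21, a helicase that links RNA polymerase I and II transcription, was 1.15-fold lower, with 11.85 in ALDH high and 12.05 in control, and both its probe sets lay below 0. With LYAR included, this role held the highest value of the set and 2 of its 3 negative values.

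**Figure D2:**
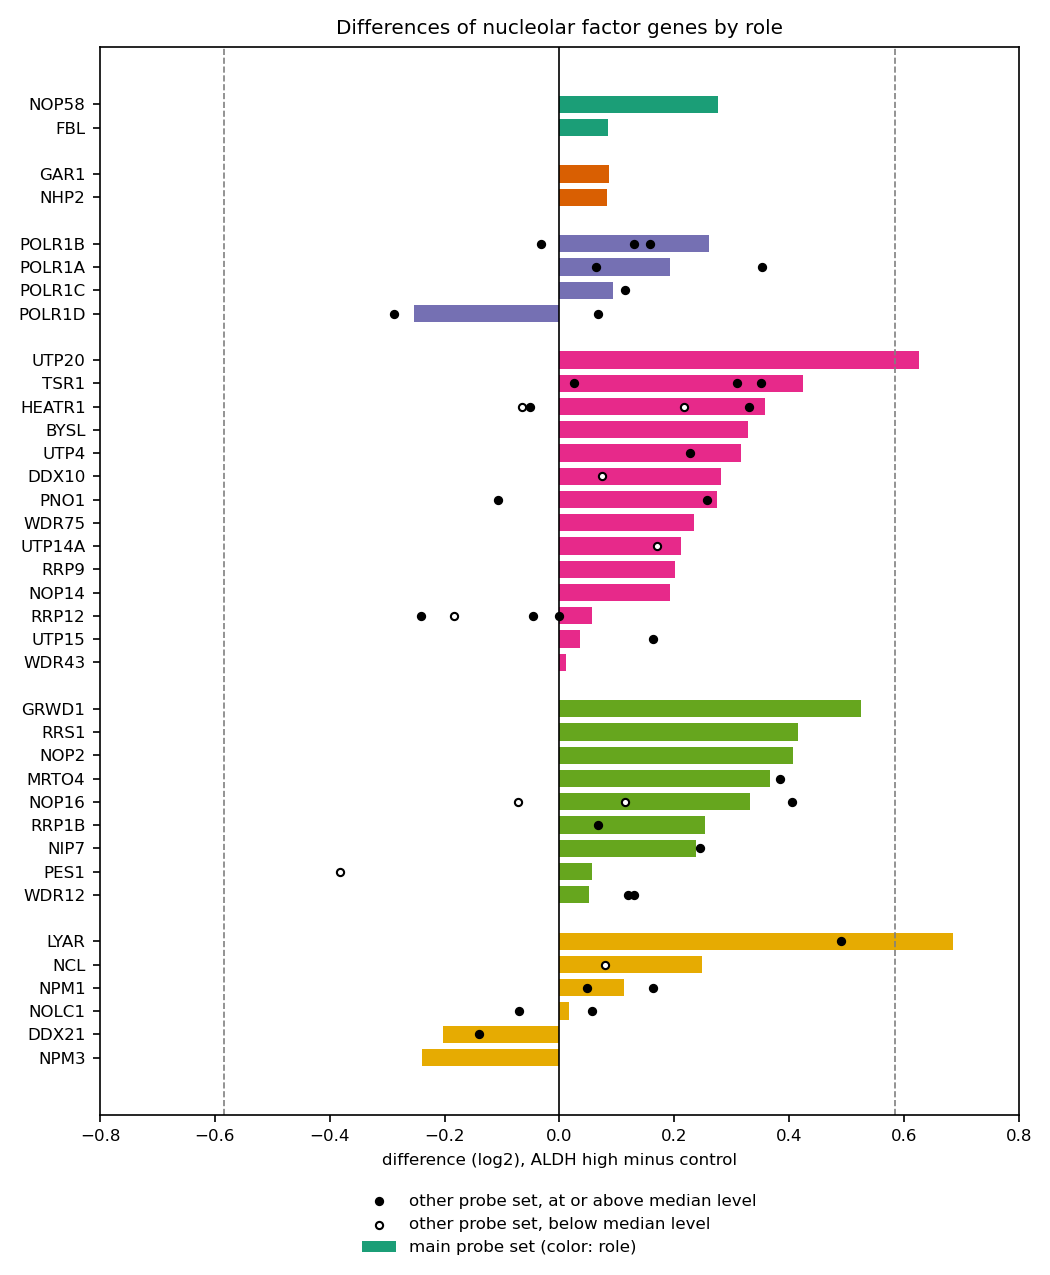
Difference (log2, ALDH high minus control) of each of the 37 genes, with bars for the main probe set colored by role, filled points for other probe sets at or above the median level and open points for dimmer ones. Dashed lines mark 1.5-fold, which LYAR and UTP20 pass, and the other bright probe sets lie mostly to the right of 0 but nearer to it than the bars.

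The other probe sets of the members gave a smaller shift in the same direction. Beside the main ones there were 32 further probe sets at or above the median level, in 19 genes. Of these, 23 lay above 0 and their median was 0.12, in a range from -0.29 to 0.49. The 9 dim probe sets had a median of 0.07. Among the 23 genes with several probe sets, 15 had all of them on the same side of 0, and the same share over all genes is not given here. On the probe set with the second highest mean, 16 of 23 members lay above 0, against 48.0% of all genes. The 24 main probe sets specific to 1 transcript had a median of 0.21 with 21 above 0, and the 13 open to cross-hybridisation had a median of 0.25 with 13 above 0.

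A wider list of 118 other ribosome biogenesis genes, of which 115 were measured, shifted the same way by a smaller amount. Of these, 92 lay above 0, 22 below and 1 at 0, none was over 1.5-fold apart, and the median was 0.15. The other small subunit factors were the most uniform, with 34 of 37 above 0 and a median of 0.16. They were led by NOL11 (11.16 in ALDH high, 10.77 in control) and the helicase DDX52 (8.82 in ALDH high, 8.45 in control). Of 44 other large subunit factors 33 lay above 0, with a median of 0.14. RSL24D1, a late large subunit factor, was 1.45-fold lower (11.30 in ALDH high, 11.83 in control), while URB2 was 1.42-fold higher (8.52 in ALDH high, 8.02 in control).

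The remaining machinery fell in the same range. Of 11 other RNA polymerase I genes 9 lay above 0, with a median of 0.17. POLR1G, a subunit specific to this polymerase, was 1.48-fold higher (9.17 in ALDH high, 8.60 in control), and the terminator-binding factor TTF1 was 1.41-fold higher (9.47 in ALDH high, 8.97 in control). Of 11 further snoRNP assembly genes 7 lay above 0, with a median of 0.05. TCOF1 (treacle) had 8.52 in ALDH high and 8.14 in control, and NAF1, an assembly factor of box H/ACA particles, had 8.81 in ALDH high and 8.47 in control. Of 12 RNA exosome genes, which trim the precursor, 9 lay above 0 with a median of 0.14, the largest being EXOSC4 (9.72 in ALDH high, 9.28 in control) and EXOSC9 (10.45 in ALDH high, 10.03 in control).

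The ribosomal proteins themselves did not share this shift. Of 61 cytosolic ribosomal protein genes 13 lay above 0 and 48 below, with a median of -0.08, none over 1.5-fold apart. Most are near the top of the scale, at a median level of 13.55 in ALDH high and 13.75 in control. RPS27L, the member with the largest positive difference, had 11.73 in ALDH high and 11.38 in control, and RPL10L, with the largest negative difference, had 6.86 in ALDH high and 7.27 in control. The 12 measured host genes of small nucleolar RNAs, whose introns carry the guides of the snoRNPs, had a median of -0.06 with 3 above 0. They were mostly dim, at a median level of 6.19 in ALDH high and 6.14 in control. Only 7 of the 12 were at or above the median probe set level, so this list is a weak comparison for the bright nucleolar factors. SNHG32 was 1.34-fold lower (11.09 in ALDH high, 11.52 in control) and SNHG28, a dim one, 1.29-fold lower (5.36 in ALDH high, 5.73 in control). The 75 mitochondrial ribosomal protein genes lay between, with 47 above 0 and a median of 0.05, led by MRPL9 (11.35 in ALDH high, 10.81 in control) and MRPL11 (10.08 in ALDH high, 9.58 in control). With 1 array per group, the difference between these lists and the nucleolar factors has no test.

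**Figure D3:**
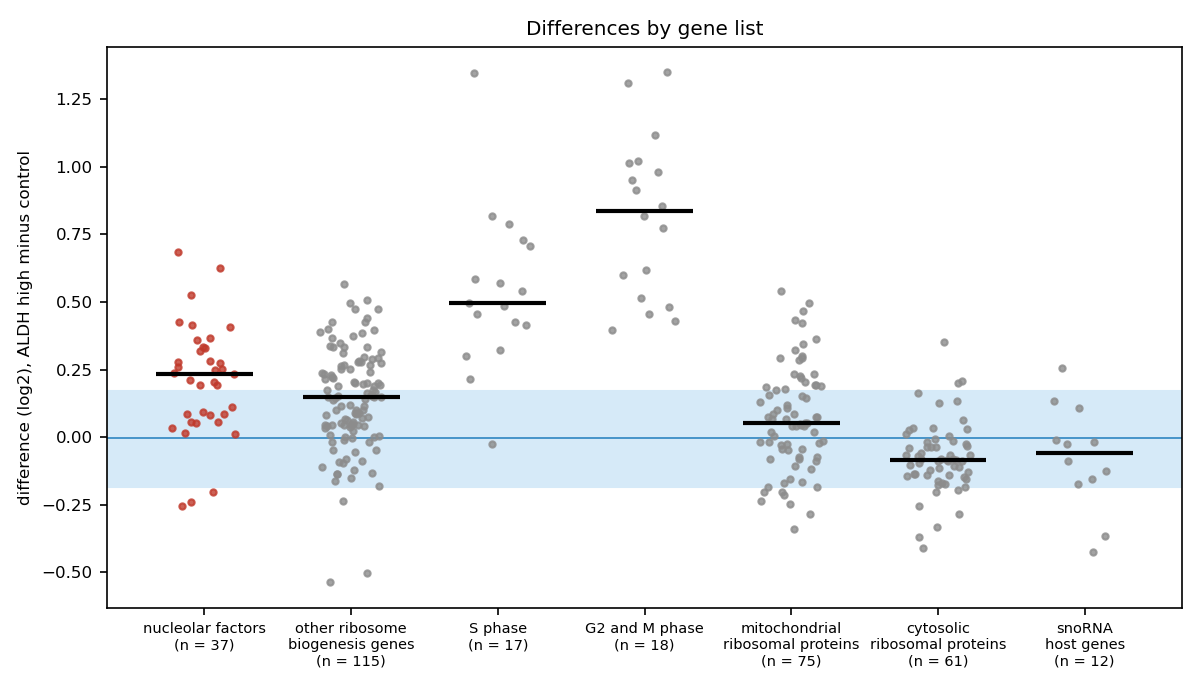
Difference (log2, ALDH high minus control) of each gene by list, with a black bar at each list's median and a blue band from the 25th to the 75th percentile of the genes at or above the median level. The median of the nucleolar factors is 0.24, that of cytosolic ribosomal proteins -0.08 and that of G2 and M phase genes 0.84.

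Cell cycle genes had larger differences in the same direction. For S phase the count above 0 was 16 of 17 and the median 0.50. TYMS (thymidylate synthase) had 11.79 in ALDH high and 10.45 in control, and the replication factors GINS2 (1.76-fold), MCM5 (1.73-fold) and MCM4 (1.66-fold) were higher too. For G2 and M phase the count was 18 of 18 and the median 0.84, and CDC20, which activates the anaphase-promoting complex, had 11.41 in ALDH high and 10.07 in control. KIF20A (2.48-fold), AURKA (2.17-fold) and CCNB1 (2.03-fold), which drive mitosis, were also higher. Their part in the nucleolar factor difference was not tested.

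MYC, a known activator of this gene set, was not higher. It had a level of 10.87 in ALDH high and 11.42 in control, 1.47-fold lower. Of 10 genes of the MYC and MAX network 5 lay above 0, and the median was 0.01. MXI1, a MAX partner that opposes MYC, was 1.87-fold lower (9.91 in ALDH high, 10.81 in control), MXD1, another such partner, differed by 0.58 (8.75 in ALDH high, 8.17 in control), and MYCL, a relative of MYC, was 1.61-fold higher (9.86 in ALDH high, 9.18 in control). RNA levels do not give the amount or activity of these proteins.

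An E-box was found in more of the set's promoters than of all promoters, although most members had none. In a window from 250 bases before to 50 after the start, an E-box was present in 12 of 32 members with a RefSeq promoter, 37.5% (95% exact binomial interval 21.1 to 56.3), against 8.90% of 15384 promoters of genes on the array. The CCAAT box, in 37.5% of the members and 36.1% of all promoters, showed no such contrast. The NRF1 motif was found in 1 member, 3.13% against 1.79% of all promoters, and the YY1 motif in 2 members, 6.25% against 1.40%. Of the 99 other ribosome biogenesis genes with a promoter, 26.3% held an E-box, whereas 5.66% of 53 cytosolic and 8.96% of 67 mitochondrial ribosomal protein promoters did. These intervals and shares describe sequences and were not tested against each other.

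The E-boxes of the set lay close to the start. Of the 12, 8 lay within the first 50 bases after it, in 25% of the members against 1.03% of all promoters, 1 spanned it and 3 lay before it, in 9.38% of the members against 7.83% of all promoters. The other ribosome biogenesis genes also had E-boxes after the start, in 14.1% of 99 promoters, and before it, in 15.2%, so the position was not particular to the set. The 30-base windows around all 12 are shown, since the 8 after the start carry the contrast with all promoters and the others do not, from the largest difference to the smallest, as RefSeq GRCh38.p14 sequence along the gene's strand with the E-box in capitals.
UTP20 (chr12:101280083-101280112, + strand): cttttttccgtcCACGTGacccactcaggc
NOP2 (chr12:6568242-6568271, - strand): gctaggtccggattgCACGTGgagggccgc
MRTO4 (chr1:19251807-19251836, + strand): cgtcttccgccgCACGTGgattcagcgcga
BYSL (chr6:41921515-41921544, + strand): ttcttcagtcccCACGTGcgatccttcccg
UTP4 (chr16:69132621-69132650, + strand): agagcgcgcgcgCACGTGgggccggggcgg
PNO1 (chr2:68157885-68157914, + strand): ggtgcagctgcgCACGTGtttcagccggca
UTP14A (chrX:129905914-129905943, + strand): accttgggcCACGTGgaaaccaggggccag
RRP9 (chr3:51941892-51941921, - strand): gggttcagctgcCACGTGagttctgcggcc
NOP14 (chr4:2963374-2963403, - strand): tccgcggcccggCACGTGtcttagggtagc
FBL (chr19:39846356-39846385, - strand): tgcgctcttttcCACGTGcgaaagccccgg
PES1 (chr22:30591880-30591909, - strand): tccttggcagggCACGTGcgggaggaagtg
WDR43 (chr2:28894658-28894687, + strand): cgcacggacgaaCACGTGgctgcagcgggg
The centres lay from 6 to 38 bases after the start in the 8 genes, at -2 in RRP9, and at -238 in UTP14A, the farthest. The bases beside the E-box differed between the genes.

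**Figure D4:**
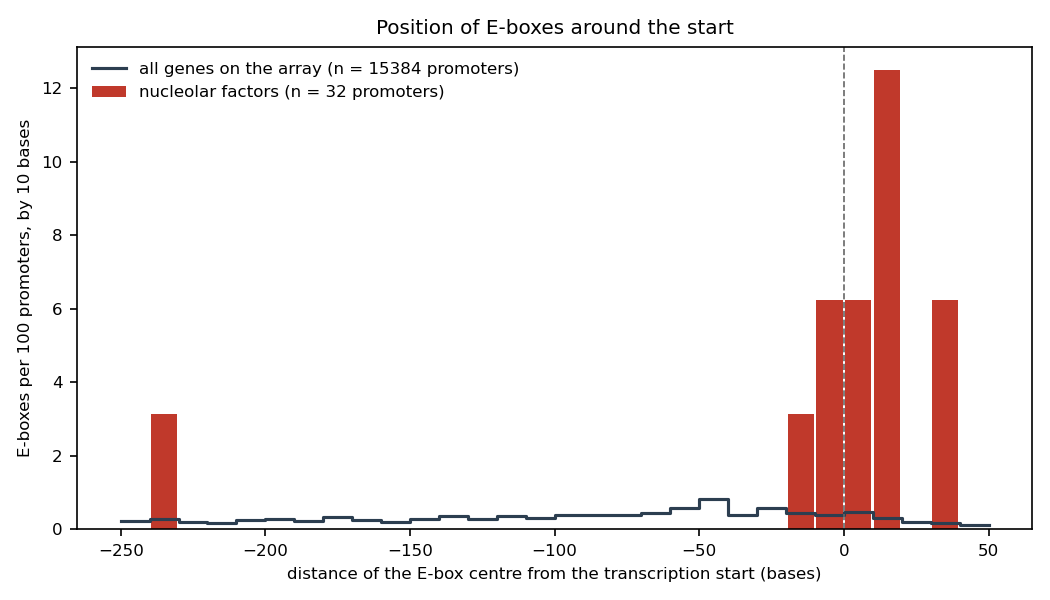
Number of E-boxes per 100 promoters in steps of 10 bases, by distance from the transcription start (dashed), for 32 nucleolar factor promoters (bars) and 15384 promoters of genes on the array (line). Of the 12 E-boxes of the set, 8 lie in the 50 bases after the start.

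Having an E-box did not go with a clearly larger difference between the arrays. The 12 members with one had a median difference of 0.24, and the 20 without had 0.21. UTP20 (0.63) and WDR43 (0.01), both with an E-box near the start, stood near opposite ends of the set, and LYAR, the highest, had none in its 300-base window. Over all genes with a promoter, those with an E-box had a median of 0 and those without -0.0047.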

How the data were processed

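Expression was measured on 2 Affymetrix arrays, 1 of ALDH-high and 1 of control QGP1 cells, from column-purified RNA labelled with a 3' in vitro transcription kit, per the labels' protocols. Per the submitters' processing notes, the authors used RMA, and the deposited table holds log2 levels per probe set. This method equalises the distributions of the arrays it is run on, so a change common to all genes cannot be seen. The table has no detection calls.

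Genes were named from GEO's platform annotation: 41091 probe sets had 1 symbol and were used, 1801 had several and 11777 none. Symbols were matched by Entrez ID to a RefSeq table of GRCh38.p14. Of the nucleolar factors, 37 of 44 could be measured, and 32 of these matched a RefSeq promoter (first listed start). Differences were computed with Python 3.11.15 and pandas 2.3.3, with no test, as there was 1 array per group, and the number of arrays limits the precision. Thresholds were 2-fold and 1.5-fold. Alternatives were other probe set choices, a pseudocount of 32 on the linear scale, a level filter and centring in 20 level bins. The threshold step was tested on simulated data. Members and lists were chosen with earlier results of these data known. The named genes were all members, and in other lists up to 4 over 1.5-fold with a minimum of 2, by size of difference. Further genes (MYC, MXD1, RPS27L, MDM2) and the comparison of E-boxes by list and by side of the start were chosen after their values were seen.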

Additional observations from a re-analysis of the deposited data

How the results depend on the processing

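The median difference of the nucleolar factors stayed above 0 under the 6 alternatives that could move it, from 0.11 on the probe set with the second highest mean to 0.23 (the level filter leaves every member in place), and that of the other ribosome biogenesis genes from 0.10 to 0.14. The members above 0 were 32 of 37 as the mean or median of their probe sets, 27 of 31 without probe sets open to cross-hybridisation, 34 of 37 with a pseudocount and 16 of 23 on the second probe set, where 48.0% of all genes lay above 0. The count over 1.5-fold higher was 1 of 31 without shared-target probe sets, where LYAR has no reading, and 1 of 37 with the pseudocount. It was 0 of 23 on the second probe set, which UTP20 lacks. No member was over 2-fold apart under any of the 6. Of 239 recomputed single-gene values, 98 were identical by construction or because the shift was 0, and of the other 141, 10 moved by more than the probe set spread and 11 changed sign or became 0. The share of promoters with an E-box was 9.38% in the bases before the start alone, and, as alternatives chosen after seeing the data, 25% in the bases after it and 46.9% over any listed start (10.9% of all promoters). That with the YY1 motif was 0% in the bases before the start. No paired analysis was possible because each group had 1 array. The cause of these shifts was not tested.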

Other observations

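Genes that respond to p53, which is activated when ribosome assembly is disturbed, showed no common direction. Of 8 measured genes 4 lay above 0, and the median was -0.0029. GDF15, a secreted stress protein, was 1.66-fold lower (13.26 in ALDH high, 13.99 in control), and RRM2B, a p53-induced subunit of ribonucleotide reductase, was 1.27-fold lower (7.93 in ALDH high, 8.28 in control). MDM2, the p53 ligase that ribosomal proteins can bind, had 12.22 in ALDH high and 11.93 in control.

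Amino acid and ER stress response genes, by contrast, were lower as a list, with 0 of 14 above 0 and a median of -1.22. They were led by DDIT4 (9.21 in ALDH high, 12.10 in control), an inhibitor of mTORC1, the kinase complex that promotes ribosome production, and by TRIB3 (8.86 in ALDH high, 11.72 in control), followed by the transcription factor DDIT3 (8.76 in ALDH high, 11.01 in control) and SESN2 (6.80 in ALDH high, 8.69 in control), another brake on mTORC1. Whether this difference and that of the nucleolar factors are linked was not tested.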
